A study of Homo sapiens with 58 samples.

Results

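The nuclear-encoded genes of the mitochondrial respiratory chain were followed through the differentiation of human embryonic stem cells toward somites. Members were taken by gene symbol alone: NDUF names with the letter A, B, C, S or V and a number, SDHA to SDHD, and names that begin with UQCR, COX4 to COX8, or ATP5. The rule found 87 of the 19084 genes in the table, 0.456% of them. By the enzyme they belong to, 36 are in complex I, 4 in complex II, 9 in complex III, 18 in complex IV and 16 in complex V. NDUFA4 was counted with complex IV, where its protein sits. The other 4 (ATP5J2-PTCD1, ATP5S, ATP5SL and COX4NB) match by name only and were not placed in a complex. CYC1 and the subunits encoded in mitochondrial DNA do not match the rule, and the symbols are the older ones used in the table.

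The respiratory chain is a row of enzymes in the inner mitochondrial membrane. Complexes I and II pass electrons from NADH and succinate to ubiquinone, complex III passes them to cytochrome c, complex IV passes them to oxygen, and the proton gradient that results drives complex V, the ATP synthase. Each complex has core subunits that carry out catalysis and, in mammals, many small accessory subunits around them. Pluripotent stem cells are known for relying heavily on glycolysis, and heart and skeletal muscle are known for isoforms of several complex IV subunits.

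RNA was measured by LM-seq, a ligation-based RNA-seq method, on total RNA from wild-type H1 cells, 1 line of human embryonic origin, at passages p30 to p40. The daily series has 3 libraries on each of 4 days, and a time course labelled presomitic mesoderm (PSM) has 2 libraries at each of 23 times, every 30 min from 30 to 690 min. Day0 cells were undifferentiated in E8 medium. Day1 followed 24 h in E8 with activin A at 100 ng/mL and the GSK3 inhibitor CHIR99021 at 3 µM. Day2 followed another 24 h in E6 base with CHIR99021 at 3 µM, the TGF-beta receptor inhibitor A83-01 at 2 µM, FGF2 at 100 ng/mL and NOGGIN at 100 ng/mL. The somite medium for the last step held the MEK inhibitor PD0325901 at 1 µM, the Wnt inhibitor IWR1 at 2.5 µM, A83-01 at 2 µM and NOGGIN at 100 ng/mL in E6. For the time course, medium and starting point are not stated in the labels. Nor is it stated whether replicates came from separate cultures, and p-values therefore refer to the variation among libraries, part or all of which may be technical.

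Library totals ran from 3.16 M to 7.81 M expected counts in the daily series, lowest at Day2 (3.16 M to 3.6 M), and from 2.53 M to 8.96 M in the course. The respiratory chain genes took 0.585 to 0.83% of the counts of a daily library and 0.696 to 0.937% of those of a course library. Stage markers followed the labels: the sum of 5 stem cell markers fell from 1970 to 2680 CPM (counts-per-million of the library, TMM-scaled) at Day0 to between 207 and 269 at Day3, 5 mesendoderm markers peaked at Day1 (672 to 709 CPM), 5 PSM markers were highest at Day2 (214 to 492 CPM), and 5 somite markers were highest at Day3 (521 to 630 CPM). Markers of other lineages were also present. The sum of 5 neural markers was 213 to 483 CPM at Day0 and 687 to 1090 CPM at Day2, of 4 endoderm markers 7.23 to 13.7 and 72.7 to 102 CPM, and of 7 muscle and heart markers 9.33 to 31 and 12.9 to 37.6 CPM. What part such cells had in the changes below was not tested, and in bulk RNA fewer cells of a type cannot be told apart from less RNA per cell.

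Per-length levels (TPM, transcripts-per-million, averaged over the 12 daily libraries) differed widely within each complex. The median subunit gene stood at 99.6 TPM in complex I, 56.7 in complex II, 61.2 in complex III, 78.2 in complex IV and 189 in complex V. The highest were ATP5B, the catalytic beta subunit of ATP synthase, at 1610 TPM, and COX4I1, the ubiquitous form of cytochrome c oxidase subunit 4, at 1010 TPM. ATP5A1, the alpha subunit that alternates with beta in the F1 head, was at 754 TPM. In complex I the core subunit NDUFV2 led with 555 TPM and the accessory subunit NDUFA3 was lowest with 9.99 TPM. In complex II the flavoprotein SDHA led with 141 TPM and the membrane anchor SDHC was lowest with 48.1 TPM. In complex III the hinge protein UQCRH led with 232 TPM. Its near-identical copy UQCRHL had no count on any day and 44.36 counts in 4 course libraries, an assignment that is uncertain between the 2 copies. Genes under 1 TPM numbered 4 in complex IV and 1 each in complexes III and V.

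Complex IV has paired isoforms, one of each pair typical of heart and skeletal muscle, testis or lung, and these minor forms were at or near the counting floor. COX6A2 and COX7A1, the muscle forms of subunits 6A and 7A, had 0 counts in the 12 daily libraries. COX6A2 also had 0 in the 46 course libraries, and COX7A1 had 4 counts in 2 of them. COX8C, a testis form, had 0 and 1 counts, and COX7B2, another testis form, had 5 counts at Day3 and 12 in the course. The upper limit behind a 0 is 3 counts, equal to 0.384 to 0.949 CPM in daily libraries and 0.335 to 1.18 CPM in course libraries. COX6B2, also a testis form, made up 1.15% of the summed COX6B TPM at Day0 and 2.41% at Day2, with single libraries between 0 and 7.24% on those days. The ubiquitous partners COX6A1, COX7A2, COX8A, COX7B and COX6B1 averaged 96.7, 96.7, 46.1, 74 and 84.7 TPM.

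Of the minor forms, only COX6B2 and COX4I2 had enough counts to test in the daily series. COX4I2, the form of subunit 4 known from lung and from hypoxic cells, was called higher at Day3 vs Day0. It was not called in the test over all days. With no count at Day0, it passed the count filter only through days on which it was higher, so its p-value is weak support. It had 0 counts at Day0, 22 at Day1, 5 at Day2 and 30 at Day3. The CPM values were 0.466, 2.18 and 1.37 at Day1, 0, 0.353 and 1.2 at Day2, and 2.16, 2.72 and 0.585 at Day3. With Day0 set to 3 counts over the group, Day3 was at least 10.9-fold higher (edgeR quasi-likelihood test, Benjamini-Hochberg adjusted p = 0.0248). The call was lost without any one of the 3 Day0 libraries and without Day3 replicate 1 or 2 (adjusted p = 0.061 to 0.0818). It remained a small share of the 2 subunit 4 genes, on average 0.51% of their summed TPM at Day1 and 0.584% at Day3, and 0.0475% over the course.

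The 3 genes for subunit c of the ATP synthase ring encode the same mature protein, and their shares of the summed level differed between days. At Day0 ATP5G2 held 46.8 ± 0.983% of their summed TPM (SD, n = 3) and ATP5G3 held 44.4 ± 1.62%. At Day2 ATP5G3 held 56.7 ± 3.92% and ATP5G2 36.7 ± 4.85%, and at Day3 the order was the other way, with 38.4 ± 0.568% and 56.6 ± 1.13%. The Day2 and Day3 ranges of ATP5G3, 52.3 to 59.6% and 37.8 to 39%, did not overlap. ATP5G1 held 10.9 ± 0.833% at Day1 and 5 ± 1.6% at Day3. These shares carry no test of their own.

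Of the 81 members with enough counts to test in the daily series, 39 (48.1%) changed on some day, against 43.6% of the 12765 genes tested (adjusted p under 0.05). Complex II had all 4 of its genes called and complex III 2 of 8. Of the complex II calls, SDHA and SDHC were each lost in 7 of 20 alternatives, SDHD in 10 and SDHB in 0. Complexes I, IV and V had 16 of 36, 7 of 14 and 8 of 15. The steps differed in kind: few calls at Day1, mostly falls of accessory subunits and some rises of catalytic ones at Day2, and mostly rises at Day3. Between Day0 and Day1, 2 of 81 members rose and 0 fell, against 7.29% of all genes called and 3.69% called higher (none fell in the edgeR test, and 1 did by DESeq2). NDUFS4, an accessory subunit of the NADH-oxidising arm of complex I, read 46.4, 51.2 and 67.6 CPM at Day0 and 119, 90.8 and 103 at Day1. The groups did not overlap, as in 22.2% of members and 35.9% of all genes. The log2 change was 0.92 ± 0.22 (SE, adjusted p = 0.015). ATP5E, the small epsilon subunit of the F1 stalk, read 11.3, 18.1 and 21 CPM at Day0 and 24.7, 44.2 and 51.3 at Day1, a log2 change of 1.26 ± 0.37 (adjusted p = 0.0482). Neither call was kept in every alternative. An unadjusted p under 0.05 was found in 12 members, and the share of all genes under that limit was not counted. Without Day0 replicate 1 or without Day0 replicate 2 no member was called. The count was 1 without Day0 replicate 3, without any one of the Day1 libraries, or without Day3 replicate 1 or 2, and it was 5 without Day3 replicate 3.

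**Figure D1:**
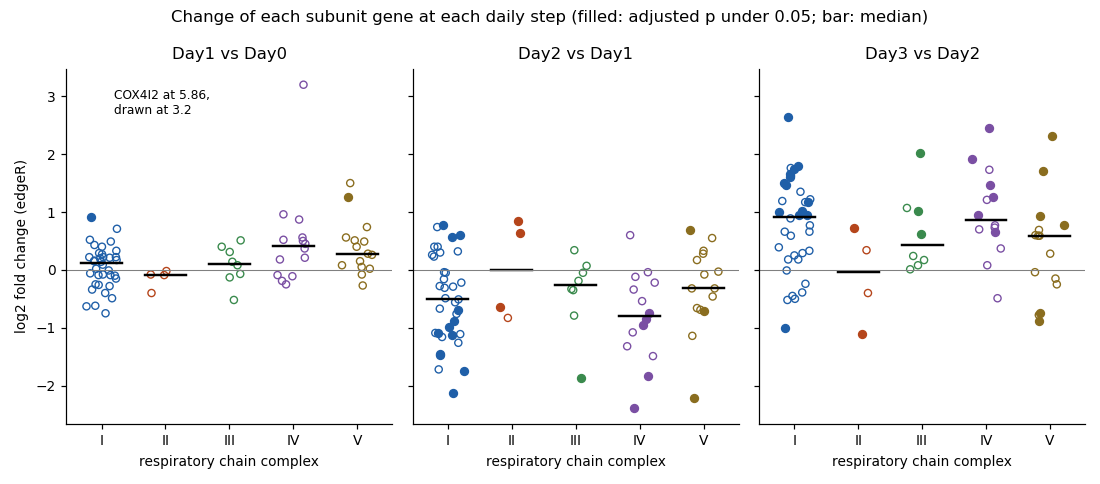
Log2 fold change of each subunit gene at the 3 daily steps, by complex (edgeR). Each point is a gene, filled where the adjusted p was under 0.05, and the bar is the median. At Day1 vs Day0 only 2 points are filled. At Day2 vs Day1 the median is lowest in complex IV (-0.80) and near 0 in complex II, and at Day3 vs Day2 it is 0.92 in complex I and -0.03 in complex II. COX4I2 in the first panel lies at 5.86 and is drawn at the panel's edge.

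From Day1 to Day2, 19 members fell and 6 rose, against 11.5% of all genes lower and 8.67% higher, 20.1% called in all. The median log2 change was -0.46 over the 81 members and -0.04 over all genes. By complex it was -0.50 in I, -0.01 in II, -0.26 in III, -0.80 in IV and -0.32 in V. The genes that fell were 9 of 36 in complex I, 1 of 4 in II, 1 of 8 in III, 5 of 14 in IV, 2 of 15 in V and ATP5SL. Those that rose were 3 in complex I, 2 in II and 1 in V.

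COX6A1, the ubiquitous form of an accessory subunit of cytochrome c oxidase, read 24.9, 41.2 and 28 CPM at Day1 and 3.81, 10.6 and 3.9 at Day2. All 3 Day2 libraries lay below the 3 of Day1, and the log2 change was -2.38 ± 0.39 (adjusted p = 0.000741). COX7A2, the ubiquitous form of subunit 7A, read 35.9, 48.1 and 26 CPM at Day1 against 10.2, 8.83 and 11.7 at Day2 (log2 change -1.84 ± 0.31, adjusted p = 0.000917). Its relative COX7A2L, a factor of supercomplex assembly, fell by 0.75 ± 0.20 on the log2 scale (adjusted p = 0.0143).

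In complex I, NDUFC1, a membrane-arm accessory subunit, read 67, 80.4 and 58.4 CPM at Day1 and 5.4, 29 and 12.9 at Day2. The groups lay far apart, with a log2 change of -2.13 ± 0.37 (adjusted p = 0.00116). NDUFS6, a zinc-binding accessory subunit, went from 61.2, 84.6 and 90.5 CPM to 27.3, 42.4 and 41.1 (log2 change -1.09 ± 0.23, adjusted p = 0.00418). NDUFS7, the core subunit that carries the last iron-sulfur cluster before ubiquinone, went from 12.6, 25.6 and 19.8 CPM to 3.49, 6 and 7.81 (log2 change -1.74 ± 0.39, adjusted p = 0.00558). It was one of 3 core subunits that fell, beside SDHC and ATP5D, the delta subunit of the F1 stalk. ATP5D read 7.22, 15.7 and 11 CPM at Day1 and 3.49, 1.06 and 2.7 at Day2 (log2 change -2.21 ± 0.57, adjusted p = 0.0136).

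The members that rose at Day2 were 5 core subunits and NDUFS4. NDUFS4 read 205, 187 and 144 CPM at Day2 against 119, 90.8 and 103 at Day1 (log2 change 0.78 ± 0.22, adjusted p = 0.0199). ATP5B read 2070, 2330 and 1650 CPM against 1300, 1110 and 1340 (log2 change 0.69 ± 0.19, adjusted p = 0.0186). The Day2 libraries of both genes lay above all libraries of the other 3 days.

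In complex II both catalytic subunits rose, and neither membrane anchor was called higher. SDHA, which oxidises succinate, read 199, 200 and 187 CPM at Day2 against 130, 101 and 147 at Day1 (log2 change 0.63 ± 0.18, adjusted p = 0.0219). SDHB, the iron-sulfur subunit, read 49.5, 37.4 and 42 CPM against 25.6, 22.6 and 24.1 (log2 change 0.84 ± 0.26, adjusted p = 0.0315). SDHC, a membrane anchor, fell from 75.4, 62.1 and 53.5 CPM to 48.6, 34.8 and 38.1 (log2 change -0.65 ± 0.22, adjusted p = 0.0437), a call lost in 11 of 21 alternatives (adjusted p up to 0.189). For SDHD, the other anchor, the log2 change was -0.83 ± 0.37 (adjusted p = 0.119). In complex I the core subunit NDUFS1 read 321, 353 and 216 CPM at Day2 against 177, 201 and 207 at Day1 (log2 change 0.61 ± 0.19, adjusted p = 0.031). The same core set also held NDUFV1, NDUFV2, NDUFS3 and ATP5A1, which were not called. Their log2 changes were 0.30, 0.40, 0.32 and 0.33, with adjusted p-values of 0.288, 0.0534, 0.348 and 0.0505. Of the 19 core subunits tested, 11 had a positive change, called or not, and the rest a negative one. Their changes ran from -2.21 to 0.84, with a median of 0.28.

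**Figure D2:**
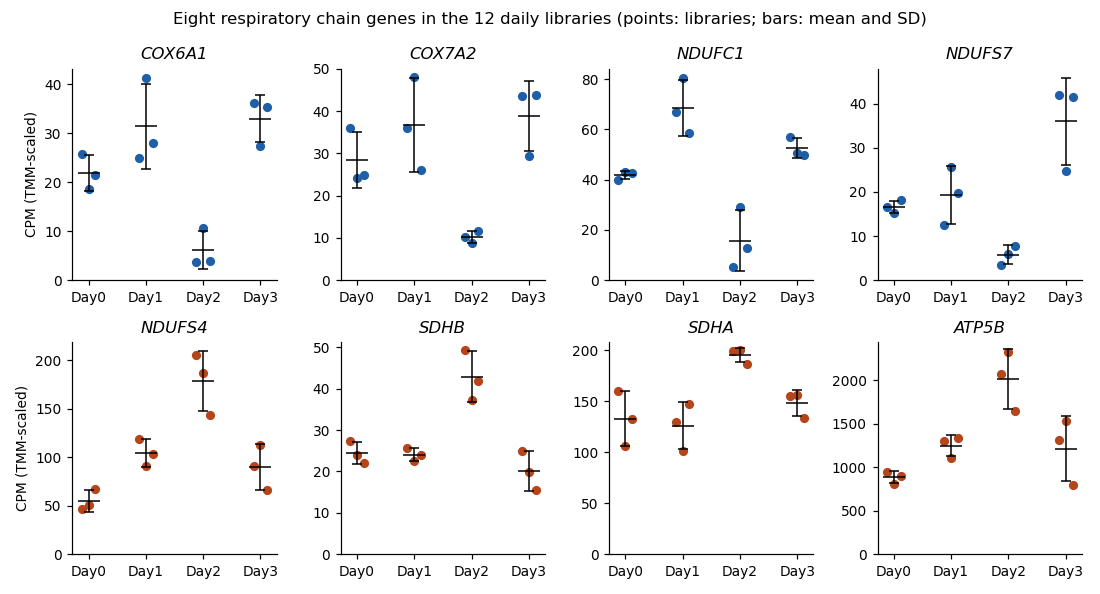
CPM (TMM-scaled, y axis) of 8 respiratory chain genes in the 12 daily libraries by day (x axis). Points are libraries and bars are the mean and SD of 3. The upper row (blue) shows genes lowest at Day2, such as COX7A2 at 8.83 to 11.7 CPM on that day. The lower row (red) shows genes highest at Day2, such as ATP5B at 1650 to 2330 CPM.

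These counts rest on few libraries. Without Day1 replicate 2, in which the members' median was 0.36 above their own 12-library mean on the log2 scale, 7 members fell and 0 rose. Without Day1 replicate 3, 14 fell and 2 rose, and without Day2 replicate 1 the same numbers, 14 and 2, were found. COX6A1, COX7A2, NDUFC1, NDUFS6, NDUFS7, UQCR11 and ATP5SL were called lower in every alternative run. Scaling by library totals alone moved the median of all genes from -0.04 to -0.19, and the split of called members was then 2 higher and 21 lower; among all genes the higher share of calls went from 43.1 to 26.6%. The 6 rises were therefore all lost without that 1 library, and those of SDHA, SDHB and NDUFS1 were among those lost with library totals alone. Day1 and Day2 libraries did not overlap in 35 of the 81 members (43.2%), against 38.2% of all genes.

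From Day2 to Day3, 28 members rose and 5 fell, against 11.6% of all genes higher and 11% lower, 22.6% called in all. The median log2 change was 0.70 over the members and 0.08 over all genes. It was 0.92 in complex I, -0.03 in II, 0.43 in III, 0.86 in IV and 0.59 in V. The steps to and from Day2 share the Day2 libraries, so the second is no independent check of the first.

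NDUFS7 read 41.9, 24.7 and 41.5 CPM at Day3, above all Day2 libraries (log2 change 2.64 ± 0.39, adjusted p = 0.000282). COX6A1 read 36.1, 27.4 and 35.3 CPM (log2 change 2.45 ± 0.39, adjusted p = 0.000531), and COX7A2 read 43.5, 29.3 and 43.9 CPM (log2 change 1.92 ± 0.31, adjusted p = 0.000597). NDUFA4, a complex IV subunit, went from 26.9, 49.1 and 41.7 CPM at Day2 to 103, 95.7 and 124 (log2 change 1.46 ± 0.24, adjusted p = 0.000657). ATP5SL, matched by name only, went from 8.25, 5.65 and 15.6 CPM to 39, 21.7 and 43.9 (log2 change 1.82 ± 0.36, adjusted p = 0.0023). In each of these the 3 Day3 libraries lay above the 3 of Day2.

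Among the other members that rose at Day3 were COX4I1, ATP5O, the stalk subunit that holds F1 to the membrane part, and UQCRC1, a core subunit of complex III. COX4I1 read 296, 230 and 346 CPM at Day2 and 526, 288 and 554 at Day3, where replicate 2 lay within the Day2 range (log2 change 0.65 ± 0.22, adjusted p = 0.0466). That call was lost in 12 of 21 alternatives. ATP5O read 88.9, 78.7 and 43.5 CPM and then 142, 106 and 154 (log2 change 0.93 ± 0.25, adjusted p = 0.0132). UQCRC1 read 108, 90.4 and 112 CPM and then 181, 171 and 125 (log2 change 0.62 ± 0.19, adjusted p = 0.0279).

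The 5 members that fell went the other way. NDUFS4 read 90.7, 113 and 65.8 CPM at Day3 (log2 change -1.0 ± 0.22, adjusted p = 0.0044), SDHB read 25, 19.9 and 15.4 CPM (log2 change -1.10 ± 0.26, adjusted p = 0.00685), and ATP5B read 1310, 1530 and 799 CPM (log2 change -0.74 ± 0.19, adjusted p = 0.012). ATP5G3 went from 397, 447 and 341 CPM at Day2 to 258, 254 and 134 (log2 change -0.88 ± 0.22, adjusted p = 0.00909), and COX4NB, matched by name only, fell by 0.88 ± 0.24 (adjusted p = 0.0158). Every Day3 library of these genes lay below the Day2 libraries. Day2 and Day3 libraries did not overlap in 51.9% of members, against 34.9% of all genes. Scaling by library totals alone moved the median of all genes from 0.08 to 0.32 and the higher share of all calls from 51.3 to 76.6%; 38 members were then higher and 3 lower. The fit on the 6 libraries of Day2 and Day3 alone called 17 higher and 2 lower. Without Day3 replicate 3, 18 rose and 4 fell.

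**Figure D3:**
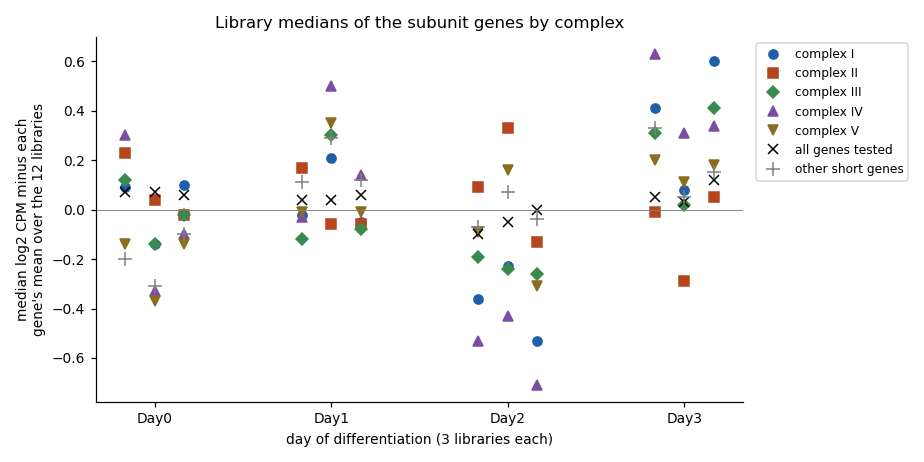
Median over the genes of each complex of the log2 CPM minus each gene's mean over the 12 libraries (y axis), by day (x axis, 3 libraries each). Crosses are the medians of all genes tested and plus signs those of 273 other short genes. The 3 Day2 libraries have the lowest complex IV medians, -0.43 to -0.71, while those of complex II there run from -0.13 to 0.33.

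Over the whole span, Day3 vs Day0, 12 members were higher and 0 lower, against 9.97% of all genes higher, 11.5% lower and 21.5% called in all. DESeq2 also called 0 lower, and the fit on the 2 days alone called 1. The median log2 change was 0.30 over members and 0.04 over all genes. ATP5J, a subunit of the peripheral stalk, read 34.3, 37.8 and 30.7 CPM at Day0 and 73.9, 53.9 and 86.9 at Day3 (log2 change 1.07 ± 0.21, adjusted p = 0.00159). ATP5E reached 56.5, 60 and 39.6 CPM (log2 change 1.63 ± 0.37, adjusted p = 0.00445). UQCRC1 went from 104, 71.5 and 91.1 CPM to 181, 171 and 125 (log2 change 0.83 ± 0.19, adjusted p = 0.00427). ATP5J and ATP5E were called in every alternative, and UQCRC1 in every one except the log2 fold limit of 1. The Day0 and Day3 libraries of these genes did not overlap, as in 30.9% of members and 41.9% of all genes. COX6C, a small complex IV subunit with 17 pseudogenes named after it, was higher by log2 0.90 ± 0.25 (adjusted p = 0.0159), and NDUFA1 by 1.38 ± 0.41 (adjusted p = 0.0247), from 4.74, 10.4 and 11 CPM to 25.9, 15.6 and 26.2. The count fell to 3 without Day0 replicate 2 or without Day3 replicate 1, to 5 without Day0 replicate 1 and to 7 without Day0 replicate 3.

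The size of these steps differed with gene length and, at high GC content, with GC. The table's effective length, taken relative to the median tested gene, had a median of 0.249 for the 19 members that fell at Day2, 0.628 for the 6 that rose and 0.265 for the 56 not called. In the 35 members with a relative length under 0.25, the median Day2 vs Day1 change was -0.88, against -0.27 for all 308 genes that short. In the 23 members between 0.25 and 0.5 it was -0.22 against -0.11. Median GC content was 48.2% for the members that fell at Day2, 49.9% for those that rose and 48.2% for those not called. In the 8 members of 60% GC or more the median Day2 vs Day1 change was -1.11, against -0.31 for all such genes. At Day3 vs Day2 it was 1.48 against 0.60. In the lower GC classes, from under 45% upward, the members' Day2 vs Day1 medians were -0.49, -0.29, -0.27 and -0.88. By library, 273 other short genes had medians of 0.11 to 0.29 at Day1 and -0.07 to 0.07 at Day2, while the respiratory chain genes had -0.02 to 0.36 and -0.51 to -0.19. With each library's dependence on length and GC removed by smooth curves, an alternative added after the data were seen, 13 members fell and 7 rose at Day2, and 25 rose and 5 fell at Day3. Their median change was then -0.32 at Day2 and 0.64 at Day3. At Day3 vs Day0, 6 of the 12 calls were left and the median was 0.11. The part of length and GC in the remaining change was not tested.

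Genes that build or feed the chain did not all follow the accessory subunits. Of 16 tested assembly factors of complex IV, 7 fell and 0 rose at Day2, where 11.5% of all genes fell, and 5 rose and 0 fell at Day3, where 11.6% of all genes rose. SCO1, a copper chaperone, went from 68.2, 85.4 and 59.9 CPM to 17.1, 29.3 and 29.4 at Day2 (log2 change -1.49 ± 0.25, adjusted p = 0.000862) and to 39.6, 55.8 and 39.8 at Day3 (0.83 ± 0.25, adjusted p = 0.0259). Of 10 assembly factors of complex I, 4 fell at Day2, ECSIT most surely (log2 change -2.40 ± 0.56, adjusted p = 0.00781), and 2 rose at Day3. TTC19, a complex III factor, fell by 1.13 ± 0.24 and then rose by 1.23 ± 0.24 (adjusted p = 0.00376 and 0.00194). No complex V assembly factor of the 3 tested was called by edgeR at either step, and 0 of them had an unadjusted p under 0.05 there.

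Of 13 citric acid cycle genes, 5 rose and 0 fell at Day2, against 8.67% of all genes higher, and 0 rose and 4 fell at Day3, against 11% lower. DLD, a shared dehydrogenase subunit, read 338, 291 and 314 CPM at Day1, 474, 473 and 421 at Day2 and 321, 342 and 303 at Day3 (log2 changes 0.54 ± 0.13 and -0.50 ± 0.13, adjusted p = 0.00957 and 0.0122). SUCLG2, of succinyl-CoA ligase, moved by 0.88 ± 0.25 and -0.96 ± 0.25 (adjusted p = 0.0199 and 0.0114). IDH3A, of isocitrate dehydrogenase, fell at Day3 by 1.55 ± 0.25 (adjusted p = 0.000591).

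CYCS, cytochrome c itself, fell at Day2 and stayed low. It read 353, 401 and 306 CPM at Day1, 121, 176 and 145 at Day2 and 122, 107 and 126 at Day3 (Day2 vs Day1 -1.26 ± 0.18, adjusted p = 0.000279). TFAM, which packages and transcribes mitochondrial DNA, went from 192, 196 and 210 CPM at Day0 to 63.3, 67.1 and 93.9 at Day3 (log2 change -1.41 ± 0.21, adjusted p = 0.000138), with no overlap. NRF1, a transcription factor known for binding promoters of respiratory chain genes, read 65.1, 53.6 and 69.8 CPM at Day2 and 29.3, 32.6 and 30.7 at Day3 (log2 change -1.02 ± 0.21, adjusted p = 0.00261). GABPB1 and YY1, of the other factors known for such promoters, fell at that step by 0.71 ± 0.17 and 0.76 ± 0.23 (adjusted p = 0.00837 and 0.0266). The list of regulators that holds TFAM and these factors had 13 tested genes. At Day3 4 of them fell and 1 rose, against 11% of all genes lower and 11.6% higher. At Day2 2 fell and 0 rose, against 11.5% of all genes lower and 8.67% higher. Of 20 protein import genes, 3 fell at Day2, a share near the 11.5% of all genes, and 5 fell at Day3, against 11% of all genes. HIGD1A, a complex IV partner outside the name rule, fell by 1.95 ± 0.18 at Day2 (adjusted p = 4.93e-06).

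Promoters of members that moved at Day2 were searched for motifs known from respiratory chain genes, because members moved in groups. RefSeq (GRCh38.p14) gave the 250 bases before the start of 69 of the 87 members. The NRF1 core GCATGCGC, on either strand, was in 12 of 69 (17.4%), against 2.81% of 27305 promoters of the same length. Those promoters include many of genes not measured or not expressed here, and shares among the tested genes alone were not counted. The ETS motif CCGGAAG was in 24.6% against 8.82%, and the YY1 motif AAGATGGC in 1.45% against 1.37%. The core motif lies inside the longer, 10-base NRF1 motif, found in 4.35% of members and 1.13% of promoters. Of the members that fell at Day2, 16 had a promoter, 4 with the NRF1 core and 3 with the ETS motif. Of those that rose, 4 had one, 1 with the core and 2 with the ETS motif. Shown are 110 bases, from 250 to 141 before the start, for 2 genes that fell (COX6A1 at chr12:120437863-120437972, plus strand, and NDUFB4 at chr3:120596086-120596195, plus strand) and 2 that rose (SDHB at chr1:17054173-17054282, minus strand, and NDUFS4 at chr5:53560389-53560498, plus strand), written 5′ to 3′ with NRF1 matches in capitals. NDUFB4, an accessory subunit of complex I, was chosen for its motif after the values were seen.
COX6A1: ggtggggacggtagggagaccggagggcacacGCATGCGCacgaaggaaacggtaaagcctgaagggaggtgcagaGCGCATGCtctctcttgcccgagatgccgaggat
NDUFB4: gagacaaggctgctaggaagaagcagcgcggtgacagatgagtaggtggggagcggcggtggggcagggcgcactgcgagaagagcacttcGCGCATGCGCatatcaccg
SDHB: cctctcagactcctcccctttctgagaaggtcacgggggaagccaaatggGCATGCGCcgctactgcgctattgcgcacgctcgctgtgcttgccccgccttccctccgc
NDUFS4: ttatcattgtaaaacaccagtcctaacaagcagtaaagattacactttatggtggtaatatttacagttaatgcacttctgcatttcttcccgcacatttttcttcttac
COX6A1 held 2 core matches, at 218 and 174 bases before the start, and SDHB 1, at 200, although their transcripts moved in opposite directions at Day2. NDUFB4 held the longer motif at 159 bases and had log2 changes of -1.45 ± 0.50 at Day2 (adjusted p = 0.048) and 1.65 ± 0.50 at Day3 (adjusted p = 0.0254). Its Day2 call was lost in 13 of 21 alternatives (adjusted p up to 0.163) and its Day3 call in 5. NDUFS4, which rose, held no match to any of the motifs in its 250 bases. A match is a run of letters, not evidence of binding.

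In the PSM time course the cells changed stage: the summed PSM markers went from 1070 CPM at 30 min to 402 at 690 min. The summed somite markers went from 10.1 to 767 CPM and those of mesendoderm from 151 to 11.3. The part of this change of stage in the values below was not tested. Of 81 tested members, 30 (37%) differed among the 23 times, against 28.9% of 13653 genes. They were 13 of 36 genes in complex I, 1 of 4 in II, 4 of 9 in III, 6 of 13 in IV and 6 of 15 in V. ATP5B had the smallest adjusted p, 2.01e-06. Its mean of 2 libraries rose from 707 CPM at 30 min to 1380 at 150 min, was 1240 and 1130 at 240 and 270 min, and was 716 at 300 min. From 300 to 570 min its means stayed between 702 and 799 CPM. ATP5G3 did much the same, with 193 CPM at 30 min, 332 at 150 min, 335 at 270 min and 190 at 300 min (adjusted p = 7.37e-06).

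The summed neural markers also stood higher at 150 min than at 30 and 300 min. Their sum, over the 5 on the list, was 242 CPM at 30 min, 587 at 150 min, 506 and 478 at 240 and 270 min and 317 at 300 min, and 3 of the 5 were highest at 150 min. STMN2 made up 304 CPM of the 150 min sum, and PAX6 stood there at 29.9 CPM and ELAVL3 at 13 CPM. The part of such cells in the course of ATP5B, ATP5G3, NDUFS4 and SDHA was not tested.

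The drop between 270 and 300 min was log2 -0.65 in ATP5B and -0.82 in ATP5G3. Over 5150 well-expressed genes that interval also had the widest spread of changes, an SD of 0.384 on the log2 scale, against 0.196 to 0.326 for the other 21 intervals. The drop of these genes and a shift between the libraries of the 2 times cannot be told apart.

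NDUFS4 and SDHA, 2 of the members that rose at Day2, also had their highest means at 150 min, 128 and 158 CPM (adjusted p = 0.000104 and 0.0398). The lead of NDUFS4 was narrow, with libraries of 125 and 131 CPM at 150 min and 155 and 96.2 at 510 min. NDUFS1, which also rose at Day2, led narrowly too, with 207 and 251 CPM at 150 min and 243 and 187 at 510 min. The course call of SDHA was lost in 24 of 54 alternatives (adjusted p up to 0.169), that of NDUFS4 in 0. Of the 6 members called higher at Day2, 5 had their highest course mean at 150 min, as did 34.7% of all genes called higher at Day2 and 10.3% of all genes tested. Of the 19 called lower at Day2, 0 had theirs at 150 min, 4 at 450 min (21.1%) and 7 at 510 min (36.8%). Of all genes called lower at Day2, 5.22% and 5.63% had theirs at 450 and 510 min. Among all 81 tested members, whatever their Day2 change, the shares were 17.3% and 24.7%, and 9.88% at 150 min. The daily and course libraries are different libraries.

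**Figure D4:**
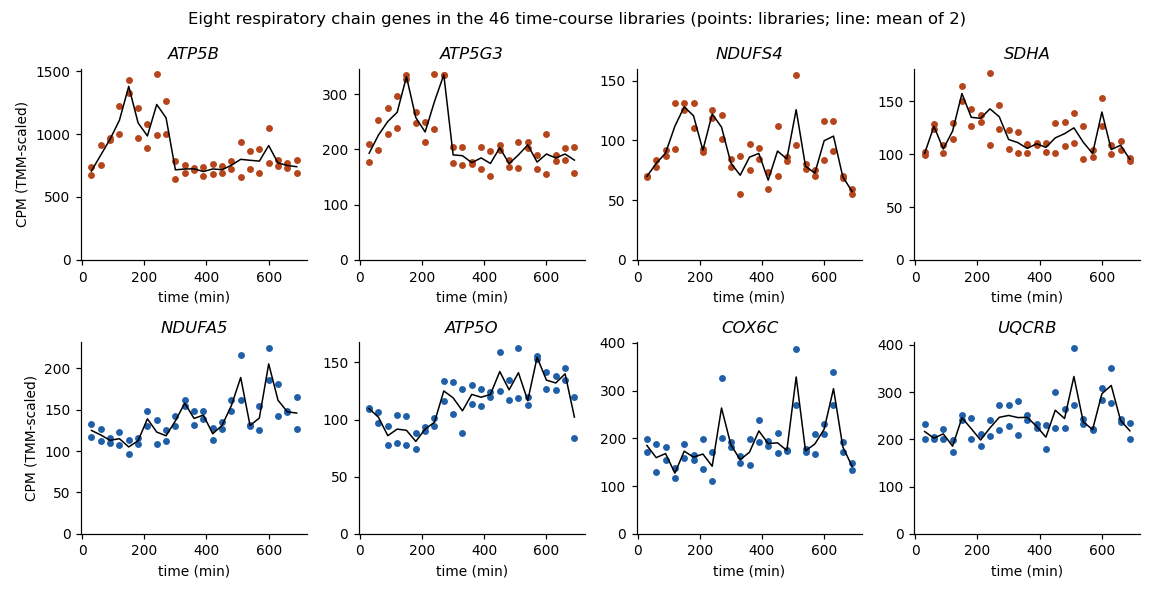
CPM (TMM-scaled, y axis) of 8 respiratory chain genes over the PSM course (x axis, min). Points are the 46 libraries and lines the mean of 2. The upper row (red) shows ATP5B, ATP5G3, NDUFS4 and SDHA, with their highest means between 150 and 270 min. The highest single library of NDUFS4 is at 510 min (155 CPM). The lower row (blue) shows genes with a called upward trend, of which NDUFA5 reached 206 CPM at 600 min and COX6C 329 CPM at 510 min.

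Fitted as a straight line over the 660 min, 11 members rose and 4 fell, 18.5% of 81, against 33.6% of all genes called (16.1% higher and 17.5% lower). The median fitted change was 0.07 over members and -0.02 over all genes. NDUFA5, an accessory subunit near the base of complex I's peripheral arm, went from 119 ± 8.97 CPM over the 6 libraries of 30 to 90 min (SD) to 152 ± 18.9 over the 6 of 630 to 690 min. The ranges, 110 to 133 and 127 to 181 CPM, overlapped slightly, and the fitted change was log2 0.55 ± 0.10 (adjusted p = 2.01e-05). NDUFA5 has 12 pseudogenes named after it. ATP5O went from 99.2 ± 12.5 to 125 ± 21.7 CPM (0.60 ± 0.11, adjusted p = 2.1e-05).

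NDUFB5, UQCRB and NDUFV2 rose by log2 0.35 ± 0.10, 0.37 ± 0.11 and 0.30 ± 0.10 (adjusted p = 0.0041, 0.00422 and 0.0109). Complex I held 7 of the 11 that rose, 19.4% of its 36 genes, near the 16.1% of all genes called higher. The 4 that fell were ATP5G3, ATP5B and both SDHB and SDHD of complex II. SDHD went from 34.4 ± 11.2 to 20 ± 2.2 CPM (log2 -0.57 ± 0.16, adjusted p = 0.00371), and SDHB from 27.1 ± 4.36 to 21.2 ± 2.79 CPM (-0.49 ± 0.15, adjusted p = 0.00802). ATP5G3 and ATP5B changed by -0.61 ± 0.13 and -0.50 ± 0.13 (adjusted p = 0.000141 and 0.00239), although their first and last windows differed little: ATP5B stood at 833 ± 126 and 754 ± 41.7 CPM. Without the times before 120 min 6 of the 15 calls were lost, among them SDHD and NDUFV2 (adjusted p = 0.095 and 0.118), and 6 members then rose. Without the times after 600 min SDHB and SDHD were lost (adjusted p = 0.0614 and 0.143). Over the course CYC1 and CYCS both fell. Of 20 import genes 7 fell and 1 rose, against 17.5% of all genes lower and 16.1% higher.

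Many members had their highest mean at 450 or 510 min, the former resting mainly on 1 library. COX6C had a mean of 329 CPM at 510 min and 127 at 120 min (adjusted p = 1.51e-05), and COX4I1 863 and 464 CPM at those times (adjusted p = 0.000697). Of the 30 called members, 11 were highest at 510 min and 6 at 450 min, against 7.51% and 3.81% of all called genes. The members' median deviation from their own course mean was log2 0.18 at 450 min, 0.23 at 510 min and -0.25 at 690 min. The 2 libraries of 450 min differed, at 0.05 and 0.31, and the higher, replicate 2, had the largest share of counts in these genes of the 46 libraries (0.937%), while those of 510 min were at 0.25 and 0.22. For 320 other short genes the same median was 0.27, 0.21 and -0.28 at those times, while the median of all genes stayed between -0.02 and 0.04. The part of transcript length in these excursions was not tested.

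**Figure D5:**
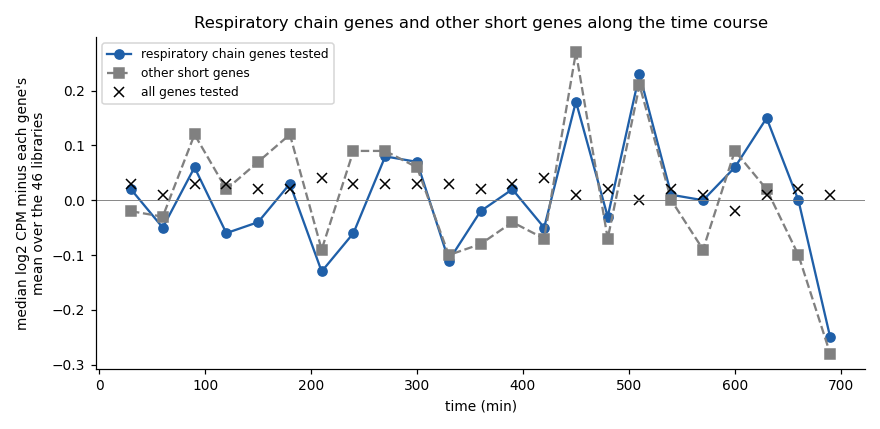
Median log2 CPM minus each gene's own mean over the 46 course libraries (y axis), averaged over the 2 libraries of each time (x axis, min). Circles are the 81 respiratory chain genes tested, squares 320 other short genes and crosses all genes. Both of the first are high at 450 and 510 min and lowest at 690 min (-0.25 and -0.28).

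A rhythm with a period of 300 min, the scale of the human segmentation clock, was called in 0 of 81 members by edgeR, against 18 of 13653 genes (0.132%). The same test called 0 of the 5 PSM markers, HES7 among them. On simulated data it recovered 18.2% of 1.5-fold and 79.7% of 2-fold rhythms. The lack of calls therefore does not show that a rhythm was absent. Of the members, 13 had an unadjusted p under 0.05, but the share of all genes under that limit was not counted. The lowest adjusted p of a member was 0.0612, for UQCRHL with its 44.36 counts. ATP5B had an adjusted p of 0.0919. DESeq2 called 1 member and limma on log2 TPM 0. With a period of 330 min 5 members were called and 4.5% of all genes, and with 270 min 1 member and 0.0146%.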

How the data were processed

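RNA-seq libraries of total RNA, 12 daily and 46 from the time course, were analysed from the deposited tables of expected counts (estimated counts per gene, not whole) and TPM, both the authors' own. The submitters' processing notes name Bowtie 0.12.2 as a tool, with hg19 and mm8 as genome builds. Quantifier and annotation were not given in the sources used here. Groups came from the labels. Expected counts were rounded and filtered with filterByExpr, scaled by TMM and tested with edgeR 4.0.16 (quasi-likelihood, Benjamini-Hochberg over all genes tested). All 12 daily or all 46 course libraries entered each fit. The course was tested for any difference among times, a straight line, and a 300 min rhythm. Log2 fold changes carry SEs, and CPM are TMM-scaled. The code was tested on simulated data: at Day2 vs Day1, 97% of 4-fold and 20% of 2-fold changes were recovered among 12346 genes, and in the course trend 84.4% of 2-fold changes among 12631 genes.

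Named genes were, per comparison and direction, the 5 called members of smallest adjusted p with at least 5 CPM, isoform pairs, core subunits, the highest and lowest of each complex, and up to 3 called genes per pathway list. Members and lists were chosen with earlier results of these data known. Alternatives used RLE factors, library totals, no filter, DESeq2 1.42.0, limma 3.58.1 on log2(TPM + 1) and log2(TPM + 0.1), a replicate block, other samples and times, and offsets for length and GC (GENCODE transcripts for GC). Count floors cover counting error only. Libraries of a group were distinct from one another. The values of 1 member are not reported here.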

Additional observations from a re-analysis of the deposited data

How the results depend on the processing

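No called member changed direction in any alternative. The count of called members from Day0 to Day1 (2) was 1 with RLE factors, 1 with library totals alone, 1 with length and GC offsets, 5 with DESeq2, 9 in the fit on those 2 days alone and 1 with a log2 fold limit of 1. Leaving out 1 library gave 0 to 5. From Day1 to Day2 (25) the fold limit left 11, and leaving out 1 library gave 7 to 26. From Day2 to Day3 (33) the 2-day fit gave 19, the fold limit 21, and leaving out 1 library 22 to 37. For Day3 vs Day0 (12) the length and GC offsets gave 6, the fold limit 7, and leaving out 1 library 3 to 16. The 300 min rhythm (0) was called in 6 members with no low-count filter, where 3.75% of all genes were called, in 1 with DESeq2, in 1 at 270 min and in 5 at 330 min. Leaving out 1 library gave 0 to 2. Leaving out 1 library gave 27 to 42 calls over all days (39), 26 to 34 among course times (30, with the full fit's dispersion trend) and 12 to 16 for the trend (15). The cause of these differences was not tested, beyond fewer libraries where some were left out.

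The replicate numbers did not pair the libraries: same-numbered daily libraries deviated with correlations of -0.113 to 0.167 (median 0.01), and 6 of 12 correlated best with their own number. In the course the correlations ran from -0.098 to 0.089. With a replicate block 38 members were called over all days, 2, 25 and 34 at the successive steps, 9 for Day3 vs Day0, 29 among course times, 14 for the trend and 0 for the rhythm. Depth limits the Day2 values most: COX6A1 had 55 counts and NDUFS7 54 over its 3 libraries.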
